A study of Mus musculus with 12 samples.

Results

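The Akr1c genes of the mouse are 8 aldo-keto reductase genes, Akr1c6, Akr1c12, Akr1c13, Akr1c14, Akr1c18, Akr1c19, Akr1c20 and Akr1c21, that lie side by side on chromosome 13. They were examined in RNA-seq libraries of female germline stem cells (FGSCs) in which Stella (Dppa3) had been knocked out or overexpressed. The members were taken as every row of the count table whose RefSeq accession maps to one of these symbols, which gave 9 transcripts of 8 genes among 41388 transcripts and 24813 gene symbols. The genes were selected on their levels and changes in these same 4 groups, with earlier results known, so all their values below, including fold changes, are a description without a test.

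There were 12 libraries in 4 groups of 3. KO was a Stella-knockout FGSC line made with CRISPR/Cas9 from a single-cell clone, and KO-con was its control, which the labels do not describe further. Over carried a lentiviral Stella coding sequence under puromycin selection, and Over-con carried the empty lentiviral vector. All groups were C57BL/6 FGSCs beyond passage 20 on mitotically inactivated STO feeder cells, and how far feeder RNA entered the libraries is not stated. The paper speaks of repeats without saying whether they were separate cultures, so the errors below measure only the spread between these libraries, which may be technical. Because KO is 1 clone and each engineered line has its own control, a difference between lines and an effect of Stella cannot be told apart from a single comparison.

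Aldo-keto reductases are barrel-shaped enzymes that use NAD(H) or NADP(H) to reduce aldehydes and ketones to alcohols, or to run the reverse reaction. The AKR1C branch acts on steroids, prostaglandins and reactive carbonyls. In the ovary it is best known for the inactivation of progesterone at the end of luteal life, which is carried out by Akr1c18, the 20-alpha-hydroxysteroid dehydrogenase. Akr1c6 is a 17-beta-hydroxysteroid dehydrogenase of liver, Akr1c14 a 3-alpha-hydroxysteroid dehydrogenase and Akr1c21 a 17-alpha-hydroxysteroid dehydrogenase of kidney. Akr1c12 and Akr1c13 are close copies of each other whose natural substrates are less well defined.

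On mm9, the build of the alignments, the cluster covered chr13:4048257-4585787, a stretch of 537531 bases. Read from left to right it held Akr1c14 on the plus strand, Akr1c18 on the minus strand, Akr1c13 on the plus strand (chr13:4190430-4204842), Akr1c19 on the plus strand, Akr1c12 on the minus strand (chr13:4267418-4278679), Akr1c6 on the plus strand, Akr1c20 on the minus strand and Akr1c21 on the plus strand. No other protein-coding gene was annotated between the first and the last member. The label of the set therefore held in the annotation, and almost all of its counts belonged to 2 of the 8 genes.

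**Figure D1:**
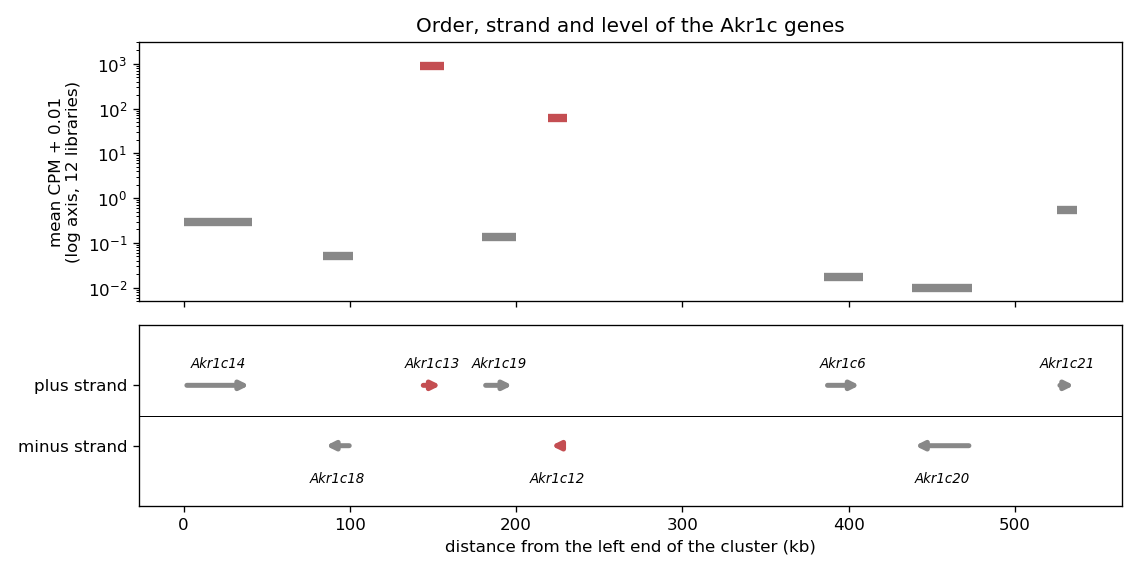
Order and strand of the 8 genes along the cluster, in kilobases from its left end (lower panel), and the mean CPM of each gene over the 12 libraries, with 0.01 added, on a log axis (upper panel). Akr1c13 and Akr1c12 (red) lie well above the other 6 genes (grey), and Akr1c19, which lies between them, is not among the abundant ones.

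The coding parts of all 8 members were 972 bases long. Identity between members lay between 71.3% and 96.2% over 28 pairs, with a median of 74.3%. The highest value belonged to Akr1c12 and Akr1c13, which differed at 37 coding positions, and the next highest, 92.3%, to Akr1c6 and Akr1c20. The start of the coding part of the pair is shown because it is nearly the same in both genes. It covers coding positions 1 to 150, 5′ to 3′ from the annotated mm9 transcripts, and capitals mark the 2 positions at which the genes differ.
Akr1c13 coding 1 to 150: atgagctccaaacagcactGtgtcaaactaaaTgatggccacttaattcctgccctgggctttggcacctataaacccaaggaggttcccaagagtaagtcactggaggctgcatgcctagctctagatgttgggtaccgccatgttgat
Akr1c12 coding 1 to 150: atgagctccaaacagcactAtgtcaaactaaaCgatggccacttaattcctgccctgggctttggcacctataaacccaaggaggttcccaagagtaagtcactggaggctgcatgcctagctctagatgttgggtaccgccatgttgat

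The stretch of 100 coding bases with the most differences, positions 303 to 402, is shown because reads from there can be told apart. Capitals mark its 12 differing positions.
Akr1c13 coding 303 to 402: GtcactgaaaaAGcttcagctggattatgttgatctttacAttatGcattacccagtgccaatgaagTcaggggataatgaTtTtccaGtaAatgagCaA
Akr1c12 coding 303 to 402: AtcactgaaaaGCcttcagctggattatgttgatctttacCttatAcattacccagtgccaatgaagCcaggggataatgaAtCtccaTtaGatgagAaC

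Across the coding part, a window of 100 bases held a median of 3 differences, and 134 of 873 windows held none. The longest run without a difference was 228 bases. Over the whole transcript, 29.5% of all 50-base stretches of Akr1c13 and 28.5% of those of Akr1c12 occurred in the other gene of the pair, and at 100 bases 11.9% and 11.5% did. None of the 50-base stretches of the pair was shared with another listed gene. Akr1c14, Akr1c19 and Akr1c21 shared no 50-base stretch with any other gene, and Akr1c6 and Akr1c20 shared 28 such stretches with each other. How reads that match both genes of the pair were assigned is not stated, and its part in the values of Akr1c12 and Akr1c13 was not tested.

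The similarity of the pair extended into the promoters. Sequences from RefSeq (GRCm38.p6) were at hand for 7 members, without Akr1c20. In the 250 bases before the RefSeq start, Akr1c12 and Akr1c13 matched at 235 of 254 aligned positions, or 92.5%. The Akr1c12 window lies at chr13:4278646-4278895 on mm9, and the gene as annotated there runs to 4278679. The end of this window is therefore inside the annotated gene, and windows of other members also overlap their genes. Akr1c19 matched Akr1c13 at 59.0% and Akr1c12 at 56.9%, and all remaining pairs lay between 43.7% and 52.1%. The first 210 of these bases are shown because the genes they precede differ in level throughout this data set. They were found by exact match on mm9 at chr13:4190183-4190392 (plus strand) for Akr1c13 and chr13:4278686-4278895 (minus strand) for Akr1c12. Capitals mark bases that differ or have no partner in the other sequence as shown. The capitals that end the Akr1c13 stretch come from the cut at 210 bases. In the alignment of all 250 bases they match Akr1c12.
Akr1c13 promoter: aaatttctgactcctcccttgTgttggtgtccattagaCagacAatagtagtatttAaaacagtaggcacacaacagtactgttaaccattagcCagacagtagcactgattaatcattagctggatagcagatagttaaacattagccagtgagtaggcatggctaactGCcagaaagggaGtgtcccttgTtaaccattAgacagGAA
Akr1c12 promoter: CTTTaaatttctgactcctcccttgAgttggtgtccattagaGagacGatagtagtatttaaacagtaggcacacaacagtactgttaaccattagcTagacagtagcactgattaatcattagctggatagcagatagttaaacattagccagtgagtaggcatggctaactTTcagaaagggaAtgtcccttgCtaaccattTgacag

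Within these 210 bases the aligned sequences had 9 substitutions and 8 positions without a partner, all but 1 of them at the overhanging ends. Of the motifs searched on both strands of the 250 bases, the ETS core with its flank (CGGAAGT) occurred once in Akr1c13, at position -19 from the start, and once in Akr1c12, at position -16, both in the part not shown. It occurred in 0 of the other 5 promoters and in 4.92% of 32851 RefSeq promoters, and it was added to the search after the sequences had been seen. The match in Akr1c12 lies inside the gene as annotated on mm9. The antioxidant response element (TGACNNNGC), the STAT5 site (TTCNNNGAA), the AP-1 site (TGANTCA), the CCAAT box, the TATA box (TATAAA), the GATA site (AGATAA) and the NR5A site (AAGGTCA) had 0 matches in both genes. Their shares of all promoters were 10.2%, 7.02%, 6.75%, 33.8%, 12.4%, 9.99% and 4.08%. Only the strings given were searched, so variants such as AGATAG, which stands in both sequences shown, were not counted. These matches are letters in a window and not binding sites.

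Library totals lay between 5611846 and 12866545 counts (median 10221419), and Over-con replicate 2 was the shallowest. A count of 3, taken as the smallest amount shown, was 0.233 to 0.535 CPM (counts scaled to a common library size), and this floor covers counting error only. Dppa3 had 0 counts in the 9 libraries of KO, KO-con and Over-con, and 347, 371 and 285 counts in Over. The labels therefore held for Over, while the counts could not separate KO from KO-con. The paper checked the knockout with Sanger sequencing, PCR of genomic DNA, RT-PCR and western blotting. It also detected Stella in its FGSCs by RT-PCR and immunofluorescence, so 0 counts here do not show that the controls lacked it. Of 18 germ cell markers, 12 had at most 3 counts in every library, among them Ddx4, Tfap2c and Gfra1 with 0 in all 12. Whether the markers at 0 are listed with several transcripts, which can lower counts, was not examined. The paper detected Mvh (Ddx4) in its FGSCs by RT-PCR and by immunofluorescence. The most abundant germ cell markers were Ifitm3 (mean 124 CPM), Dppa3 (7.58 CPM, from Over alone) and Sycp3 (1.64 CPM).

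The 8 members together held 112184 counts, 0.0940% of all counts. Akr1c13 accounted for 93.4% of them and Akr1c12 for 6.51%. By mean CPM, Akr1c13 ranked 152nd and Akr1c12 3149th of all listed transcripts. The summed level of the cluster was 1502 ± 76.7 CPM (SD, n = 3) in KO-con, 1001 ± 70.5 in KO, 470 ± 10.9 in Over-con and 758 ± 5.60 in Over. The ranges of the 4 groups did not overlap.

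**Figure D2:**
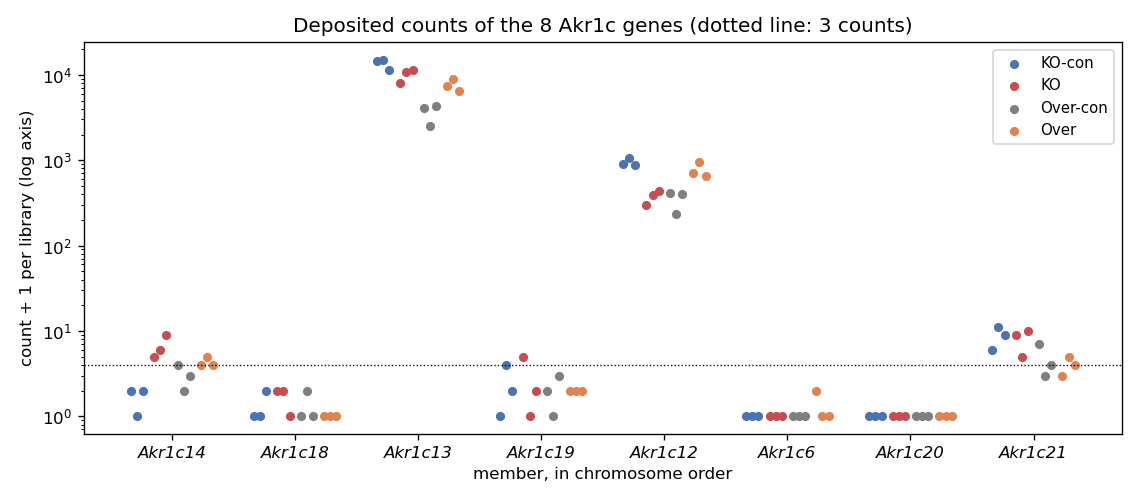
Deposited counts of each member, with 1 added, on a log axis, with 3 libraries per group and the dotted line at 3 counts. Akr1c13 (2498 to 14843 counts) and Akr1c12 (235 to 1064) stand apart, and no other member exceeds 10 counts in any library.

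The counts of the classical steroid dehydrogenases of the cluster were at or near the floor. Akr1c18 had 4 counts over all 12 libraries, at most 1 in a library, and its other listed transcript had 0. It is the one member listed with 2 transcripts, and Gapdh, also listed with 2, had 23 counts over all libraries, so a low count for a gene listed in this way does not show that its RNA was scarce. Akr1c6 had a single count, in Over replicate 1, and Akr1c20 had 0 in all libraries. Akr1c19 had 0, 3 and 1 counts in KO-con, 4, 0 and 1 in KO, 1, 0 and 2 in Over-con and 1, 1 and 1 in Over. A single library, KO replicate 1, exceeded 3 counts for this gene.

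Akr1c14, the 3-alpha-hydroxysteroid dehydrogenase, had 1, 0 and 1 counts in KO-con, 4, 5 and 8 in KO, 3, 1 and 2 in Over-con and 3, 4 and 3 in Over. All 3 KO libraries were above all 3 KO-con libraries, at levels of 0.434 to 0.726 CPM against 0 to 0.121 CPM. Of the 9457 transcripts tested between these groups, which do not include Akr1c14, 30.5% had groups that did not overlap, so nothing is read from this separation. The counts were too low for a fold change, since KO-con was under the floor. Akr1c21 had 5, 10 and 8 counts in KO-con, 8, 4 and 9 in KO, 6, 2 and 3 in Over-con and 2, 4 and 3 in Over. Its KO-con and KO ranges overlapped, as did those of Over-con and Over. None of these 6 genes passed the filter on low counts in any comparison, so the fold changes below cover 2 of the 8 members.

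Akr1c13 was the most abundant member in every library. It had 14349, 14843 and 11528 counts in KO-con, 7941, 10795 and 11472 in KO, 4127, 2498 and 4344 in Over-con, and 7429, 8942 and 6496 in Over. In CPM scaled over all 12 libraries (TMM), this was 1403 ± 78.0 (SD, n = 3) in KO-con, 964 ± 67.6 in KO, 428 ± 10.1 in Over-con and 689 ± 5.10 in Over. The order was KO-con, KO, Over, Over-con, and no neighbours in it overlapped: the lowest KO-con library had 1328 CPM against 1041 in the highest KO library, the lowest KO library 915 against 695 in the highest Over library, and the lowest Over library 685 against 440 in the highest Over-con library. From the highest to the lowest group the means differed 3.28-fold.

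Akr1c12 was far lower and had another order. It had 904, 1064 and 876 counts in KO-con, 300, 388 and 433 in KO, 410, 235 and 398 in Over-con, and 702, 947 and 644 in Over. The scaled levels were 98.3 ± 6.85 CPM in KO-con, 35.8 ± 3.03 in KO, 40.7 ± 1.81 in Over-con and 68.8 ± 3.78 in Over. KO-con was again the highest group, followed by Over. Over-con and KO came last and overlapped, since the lowest Over-con library had 38.6 CPM and the highest KO library 39.3 CPM. The groups at the ends of the order differed 2.74-fold in mean.

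**Figure D3:**
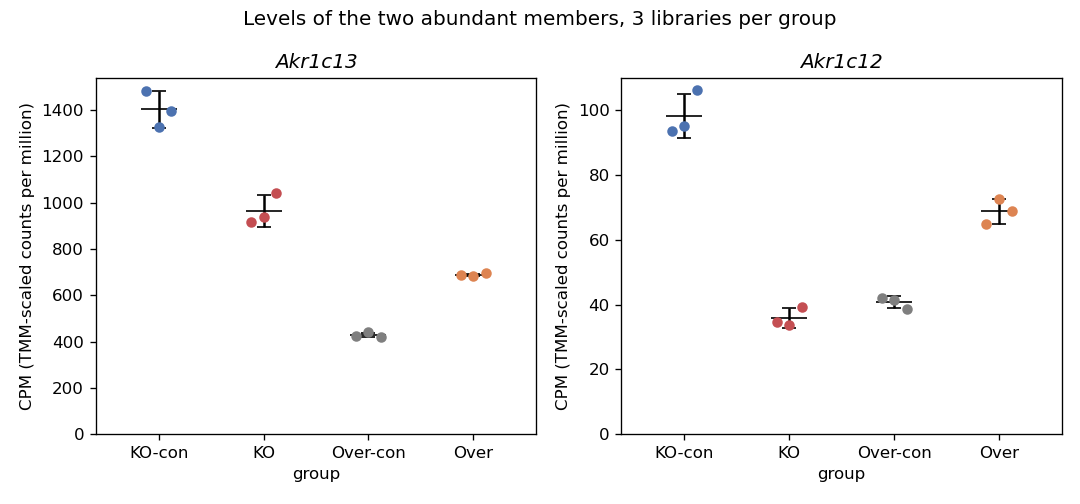
CPM (TMM over 12 libraries) of Akr1c13 and Akr1c12 by group, with a point per library and bars for the mean ± SD (n = 3). KO is the second highest group for Akr1c13 (964 CPM) and the lowest for Akr1c12 (35.8 CPM), and Over lies above Over-con for both.

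Compared per transcript length (TPM computed from the counts, a share of all length-corrected counts), Akr1c13 exceeded Akr1c12 14.7-fold in KO-con, 27.8-fold in KO, 10.9-fold in Over-con and 10.3-fold in Over. On this scale Akr1c13 lay between group means of 923 (Over-con) and 2876 (KO-con). Akr1a1, the widely expressed aldehyde reductase of the same superfamily, lay between 719 and 805. On this scale the level of Akr1c13 was thus above that of Akr1a1 in all 4 groups, and its spread between groups was wider. The lengths were those of the longest annotated transcript, 1225 bases for Akr1c13 and 2227 for Akr1a1. Without this correction Akr1a1 was the higher gene in Over-con, at 639 to 724 CPM against 422 to 440 for Akr1c13.

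In the first comparison, which asks what loss of Stella does, Akr1c12 and Akr1c13 were both lower in KO than in KO-con. The log2 fold change was -1.45 (SE 0.0914) for Akr1c12 and -0.53 (SE 0.0758) for Akr1c13, and in both genes the highest KO library lay below the lowest KO-con library. At an edgeR adjusted p under 0.05 with an absolute log2 fold change over 1, 1 member (Akr1c12) was called, where 1.70% of the 9457 transcripts tested were called. Without the fold threshold both were called, against 11.8% of all transcripts. Groups that do not overlap were found for both members and for 30.5% of all transcripts. Since these changes chose the genes, nothing is read from the counts. In bulk libraries, fewer cells of a type and less RNA per cell cannot be told apart.

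In the second comparison, which asks what added Stella does, both genes were higher in Over than in Over-con, by nearly the same factor. The log2 fold change was 0.69 (SE 0.0574) for Akr1c13 and 0.77 (SE 0.0828) for Akr1c12, and every Over library lay above every Over-con library. With the fold threshold 0 members were called by edgeR, DESeq2 or limma-voom (background 0.170%), and without it 2 (background 1.65%). Groups did not overlap for both members and for 19.1% of transcripts. Set beside the knockout, the KO and Over effects had opposite signs in both genes, and the difference between the effects was -1.23 (SE 0.0914) for Akr1c13 and -2.21 (SE 0.120) for Akr1c12 on the log2 scale. Both were called with the threshold (background 1.90%) and without it (background 8.64%). The effects share no library.

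The 2 control groups, neither of which had a count of Dppa3, differed more in Akr1c13 than either engineered line differed from its control. KO-con was above Over-con by a log2 fold change of 1.72 (SE 0.0720) for Akr1c13 and 1.28 (SE 0.0890) for Akr1c12. Both were called with the threshold (background 2.16%) and without it (background 16.3%), and their groups did not overlap, which held for 32.3% of all transcripts. This comparison shares KO-con with the first and Over-con with the second.

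The choice of control therefore set the sign of most of these values. Against Over-con in place of its own control, KO was higher in Akr1c13, with a log2 fold change of 1.17 (SE 0.0810), and at -0.18 (SE 0.105) in Akr1c12, where the groups overlapped on the common scale. Against KO-con, Over was lower in both, with -1.02 (SE 0.0513) for Akr1c13 and -0.51 (SE 0.0685) for Akr1c12. Of the 4 changes against the own control, 3 changed sign with the other control and the fourth, Akr1c12 in KO, shrank. What the control lines differ in beyond their construct was not tested.

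The share of Akr1c12 among the counts of the pair does not depend on the scaling between libraries. It was 5.93%, 6.69% and 7.06% in KO-con, 3.64%, 3.47% and 3.64% in KO, 9.04%, 8.60% and 8.39% in Over-con, and 8.63%, 9.58% and 9.02% in Over. KO lay below KO-con in all libraries, with a mean of 3.58% ± 0.0977 against 6.56% ± 0.579 (SD, n = 3). Over (9.08% ± 0.474) and Over-con (8.68% ± 0.329) overlapped. Exact binomial 95% intervals, which cover counting error only, ran from 3.14% to 4.07% over the KO libraries and from 5.56% to 7.53% over the KO-con libraries. Within the pair, then, the KO libraries differed from KO-con more in Akr1c12 than in Akr1c13, and the Over libraries had nearly the mixture of Over-con.

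**Figure D4:**
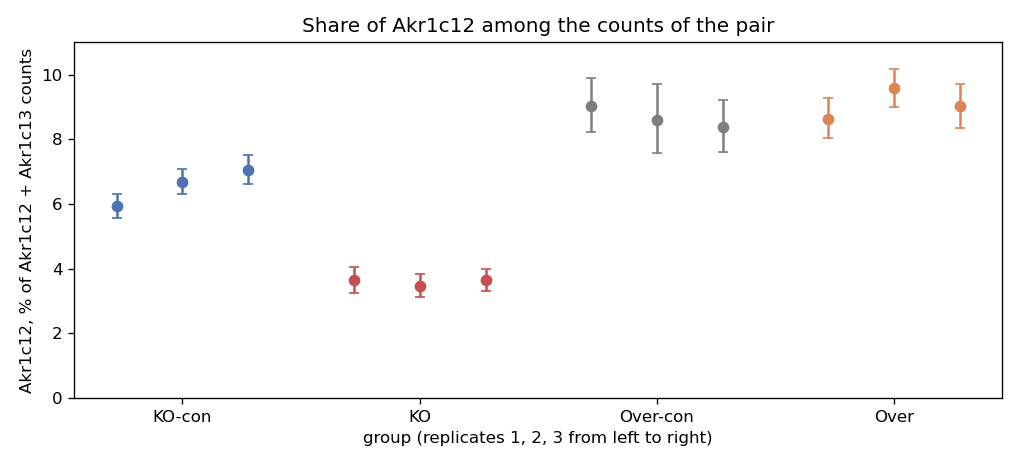
Akr1c12 as a percentage of the counts of Akr1c12 and Akr1c13 together in each library, with exact binomial 95% intervals. The 3 KO libraries (3.47% to 3.64%) lie below the 3 KO-con libraries (5.93% to 7.06%), and the Over (8.63% to 9.58%) and Over-con (8.39% to 9.04%) ranges overlap.

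No gene around the cluster passed the test. Inside it or within 1 Mb of either end, 19 genes that are not members were annotated, 12 were in the table and 5 genes with 6 transcripts passed the filter in each comparison: Gdi2, a regulator of Rab proteins, Asb13, Net1, the noncoding 2810429I04Rik and Akr1e1, an aldo-keto reductase just right of the cluster. By edgeR's quasi-likelihood test 0 of the 6 transcripts had an adjusted p under 0.05 in any comparison, and DESeq2 and limma-voom gave 0 too. At an unadjusted p under 0.05 there was 1, Akr1e1 in KO-con against Over-con, in each of the 3 tools. Its levels were 55.9 ± 2.58 CPM in KO-con and 48.5 ± 3.31 in Over-con, and the log2 fold change was 0.21 (SE 0.0913, edgeR adjusted p = 0.133). Gdi2, the most abundant neighbour, had log2 fold changes of -0.01 (SE 0.0668) in KO, 0.01 (SE 0.0707) in Over and 0.11 (SE 0.0755) between the controls. Asb13, Net1 and the noncoding gene were at 1 to 6 CPM, with standard errors of 0.216 to 0.417, so changes of that size were not detectable for them.

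Among the other aldo-keto reductases, 12 genes were listed and 8 were tested in KO against KO-con. Akr1b7, an aldose reductase-like enzyme of adrenal cortex, rose from 65.2 ± 8.40 CPM in KO-con to 117 ± 7.93 in KO, a log2 fold change of 0.84 (SE 0.0941, edgeR adjusted p = 2.37e-05). This direction is opposite to that of the Akr1c pair in the same libraries. None of the other 7 passed the test. In Over against Over-con 0 of 6 passed (2 at an unadjusted p under 0.05, and 0 by DESeq2 and limma-voom), with Akr1b7 at 0.23 (SE 0.0814, adjusted p = 0.218) and Akr1b8 at -0.24 (SE 0.0836, adjusted p = 0.204). The knockout and overexpression effects differed in Akr1b7 by 0.62 (SE 0.127, adjusted p = 0.00399) and in Akr1b8 by 0.55 (SE 0.131, adjusted p = 0.0115), both with the sign opposite to the Akr1c pair. Akr1b8 was the 1 of 7 tested genes to differ between the controls, lower in KO-con (-0.36, SE 0.0998, adjusted p = 0.0153).

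**Figure D5:**
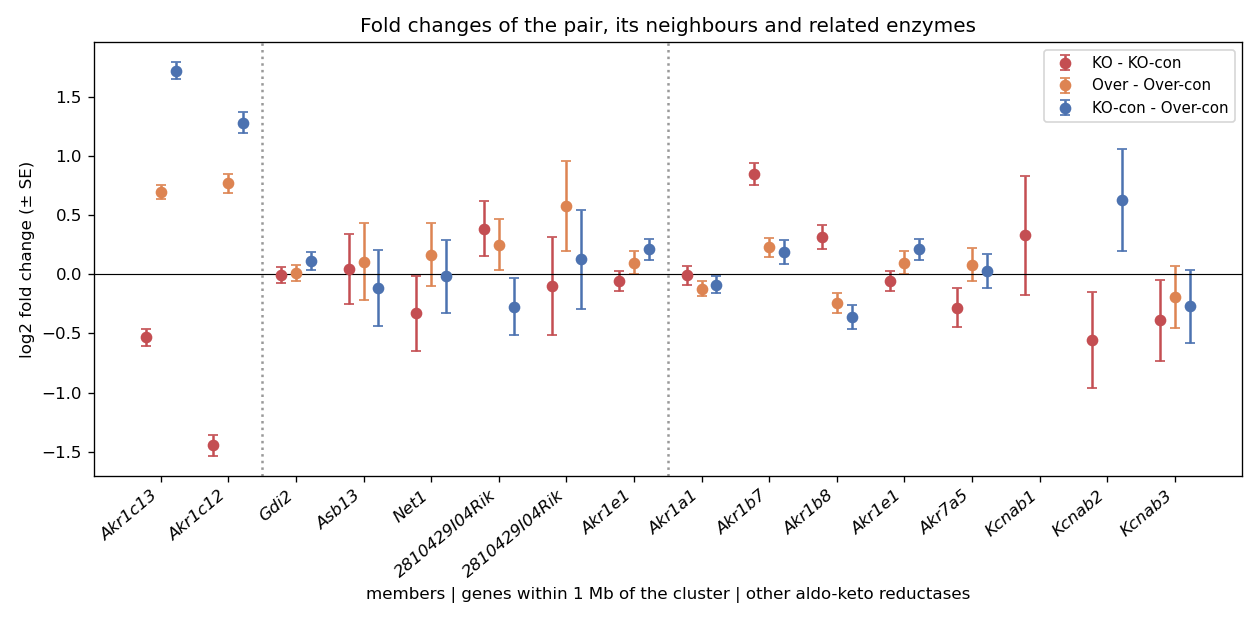
Log2 fold changes ± SE of the 2 tested members, of the 6 tested transcripts of 5 genes within 1 Mb of the cluster (2810429I04Rik has 2) and of the 8 other genes of the aldo-keto reductase superfamily tested in KO (Akr1e1 stands in both sets, and a missing point was not tested in that comparison), for KO minus KO-con, Over minus Over-con and KO-con minus Over-con. The members span -1.45 to 1.72, the neighbours lie between -0.33 (Net1 in KO, SE 0.319) and 0.58 (a 2810429I04Rik transcript in Over, SE 0.378), and Akr1b7 in KO (0.84) has the opposite sign to the members.

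Genes of the pathways in which AKR1C enzymes work were then counted, from 7 lists with 163 genes in all, of which 95 were tested in KO, 93 in Over and 95 between the controls. In KO against KO-con, 12 of their transcripts rose and 6 fell among 101 tested (edgeR adjusted p under 0.05, background 11.8%), and the median log2 fold change was 0.03 against 0.01 over all transcripts. In Over against Over-con 1 rose and 3 fell among 96 (background 1.65%), with a median of -0.09. Between the controls 9 were higher and 13 lower in KO-con among 100 (background 16.3%), with a median of -0.04. With the fold threshold the counts were 1, 0 and 7 (backgrounds 1.70%, 0.170% and 2.16%). With it, DESeq2 called 0, 0 and 5 and limma-voom 1, 0 and 6, and in Over 20 transcripts had an unadjusted edgeR p under 0.05.

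In steroid synthesis and metabolism, 2 of 20 transcripts rose and 1 fell in KO. Por, the electron donor of microsomal P450 enzymes, and Fdxr, which passes electrons to mitochondrial ones, rose in KO by 0.39 (SE 0.0816, edgeR adjusted p = 0.00507) and 0.35 (SE 0.0900, adjusted p = 0.0171). Cyp11a1, the side-chain cleavage enzyme that opens steroid synthesis, fell from 92.1 ± 6.03 to 71.5 ± 9.79 CPM (-0.36, SE 0.0969, adjusted p = 0.0235). It was higher in KO-con than in Over-con by 0.51 (SE 0.0909, adjusted p = 0.000424). In both comparisons, which share KO-con, this was the sign of Akr1c12 and Akr1c13. In Over, Cyp11a1 was at -0.30 (SE 0.0904, edgeR adjusted p = 0.122) and the pair was higher. Srd5a3 (-0.39, SE 0.0873, adjusted p = 0.00318) and Por (-0.22, SE 0.0740, adjusted p = 0.0473) were lower in KO-con than in Over-con. In Over 0 of 19 transcripts of this list passed by edgeR, DESeq2 or limma-voom, with 3 at an unadjusted p under 0.05. Of 4 steroid receptors tested, 0 passed in KO and in Over by any of these tools, also at an unadjusted p under 0.05. Nr3c1, the glucocorticoid receptor, was lower in KO-con than in Over-con in 1 of its transcripts (-1.01, SE 0.185, adjusted p = 0.000596).

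Of the prostaglandin genes, 1 of 14 transcripts rose in KO, 1 of 15 rose and 2 fell in Over, and 1 of 15 was higher and 4 were lower in KO-con than in Over-con. Ptgs2, the inducible cyclooxygenase, rose in KO from 43.0 ± 3.50 to 75.3 ± 9.33 CPM (0.81, SE 0.101, edgeR adjusted p = 8.14e-05) and fell in Over from 56.7 ± 7.26 to 41.5 ± 1.75 CPM (-0.44, SE 0.0982, adjusted p = 0.0351), and its effects differed by 1.25 (SE 0.147, adjusted p = 1.37e-05). Both signs were opposite to those of the Akr1c pair. Ptgis, prostacyclin synthase, rose in Over from 44.9 ± 7.12 to 69.3 ± 5.08 CPM (0.61, SE 0.103, edgeR adjusted p = 0.00559). It was higher in KO-con than in Over-con by 1.29 (SE 0.0992, edgeR adjusted p = 1.1e-08). In both comparisons, which share Over-con, Ptgis had the sign of the pair. In KO, where the pair was lower, it was at 113 ± 2.83 CPM against 108 ± 4.35 in KO-con (0.08, SE 0.0715, adjusted p = 0.564). Ptges, a prostaglandin E synthase, fell in Over (-0.38, SE 0.0843, adjusted p = 0.0336) and was lower in KO-con than in Over-con (-0.66, SE 0.100, adjusted p = 7.85e-05), as was Ptgs1 (-0.34, SE 0.0769, adjusted p = 0.00356).

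Of the NRF2 pathway and its targets, the response to electrophiles that includes several aldo-keto reductases, 6 of 28 transcripts rose and 2 fell in KO, with a list median of 0.05. Gstm1, a glutathione transferase, rose by 0.56 (SE 0.101, edgeR adjusted p = 0.00157), Hmox1, heme oxygenase, by 0.38 (SE 0.0710, adjusted p = 0.00215) and Cat, catalase, by 0.40 (SE 0.0769, adjusted p = 0.00268). In Over 1 of 28 fell, Srxn1, sulfiredoxin (-0.37, SE 0.0764, adjusted p = 0.0229). Between the controls Slc7a11, the cystine transporter, was higher in KO-con (0.70, SE 0.0840, adjusted p = 4.31e-06), Srxn1 lower (-0.52, SE 0.0811, adjusted p = 0.000107) and Gsr, glutathione reductase, lower (-0.33, SE 0.0799, adjusted p = 0.00669). In carbonyl and xenobiotic metabolism Aldh9a1 rose in KO (0.35, SE 0.0924, adjusted p = 0.0199), 0 of 14 transcripts passed in Over by edgeR, DESeq2 or limma-voom (2 at an unadjusted edgeR p under 0.05), and Aldh9a1, Dhrs1 and Aldh1a7 were lower in KO-con than in Over-con, with log2 fold changes of -0.45 (SE 0.0860), -0.46 (SE 0.0927) and -0.66 (SE 0.139) and adjusted p of 0.000838, 0.00153 and 0.00219.

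The last list held cytokine, prolactin and luteal signaling genes that act upstream of Akr1c18. In KO 1 of its 12 transcripts rose and 3 fell, with a median of -0.56. Cish and Socs3, feedback inhibitors induced by JAK-STAT signaling, fell from 98.6 ± 2.12 to 56.2 ± 1.02 CPM (-0.81, SE 0.0753, edgeR adjusted p = 3.53e-06) and from 286 ± 11.95 to 152 ± 24.4 CPM (-0.92, SE 0.0957, adjusted p = 1.25e-05). Junb, an AP-1 subunit, fell (-0.65, SE 0.0797, adjusted p = 6.73e-05), and 1 of the 2 tested transcripts of Stat5b, a transcription factor downstream of the prolactin receptor, was called higher at low levels, 3.02 ± 0.525 CPM against 1.33 ± 0.772 (1.16, SE 0.363, adjusted p = 0.0485). The Stat5b call was lost with DESeq2, with at least 10 counts in every library, with counts summed per gene and without KO-con replicate 2 or 3. In Over 0 of 11 transcripts passed by edgeR or limma-voom and 1 by DESeq2, with 2 at an unadjusted edgeR p under 0.05. Between the controls Cish was higher in KO-con (1.13, SE 0.0875, adjusted p = 1.14e-08), as were 3 transcripts of Socs2 (1.44 to 2.39, adjusted p of 0.000698 to 0.0319) and 1 of Socs1 (1.02, SE 0.312, adjusted p = 0.0297). By DESeq2, 3 of the 12 transcripts of this list passed between the controls, in place of 5 by edgeR. Cish thus had the sign of the Akr1c pair in KO and between the controls, comparisons that share KO-con. It did not in Over, with 41.4 ± 2.32 CPM in Over and 46.1 ± 4.14 in the empty-vector control (-0.16, SE 0.0919, edgeR adjusted p = 0.485). The KO and Over effects differed in Cish by -0.65 (SE 0.112, adjusted p = 0.000796).

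Over the 12 libraries, Akr1c12 and Akr1c13 had a Pearson r of 0.564 in log2 CPM, which placed Akr1c12 1140th among 9241 transcripts ranked by their r with Akr1c13. The 5 transcripts of other genes with the highest r were Abcg1, a cholesterol exporter (0.980), Hhip, an inhibitor of hedgehog ligands (0.973), Hes1, a Notch-induced repressor (0.965), the noncoding Rab11fip4os1 (0.963) and Cep85l (0.958). Abcg1 had 83.2 ± 8.23 CPM in KO-con, 60.5 ± 6.56 in KO, 31.5 ± 2.14 in Over-con and 43.4 ± 2.13 in Over. Hhip followed the same order with 50.6 ± 2.87, 28.8 ± 3.76, 12.5 ± 1.69 and 21.5 ± 2.85 CPM. Hes1 was low, at 5.01 ± 0.702, 2.56 ± 0.462, 0.797 ± 0.150 and 1.62 ± 0.472 CPM. The libraries fall into 4 groups, so these r follow the 4 group means, and no p is given.

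Markers of other cell types were counted in the same fits, where 11.8% of all transcripts had an adjusted p under 0.05 in KO, 1.65% in Over and 16.3% between the controls. Of 19 mast cell markers, 8 had at most 3 counts in every library, Fcer1a, Ms4a2 and Tpsab1 were at 0 and Cpa3, Fcer1g and Slc18a2 were the most abundant. Their summed level was 638 to 719 CPM in KO-con, 1458 to 1540 in KO, 1124 to 1247 in Over-con and 991 to 1024 in Over, and 4 of 11 tested rose in KO, 1 of 9 fell in Over and 3 of 10 were lower in KO-con than in Over-con. Among the transcripts that passed, the sign in each comparison was opposite to that of the Akr1c pair. In Over the 1 transcript that passed was Cpa3. The median log2 fold change of all tested transcripts of the list was 0.56 in KO, 0.05 in Over and -0.22 between the controls. In Over, then, the list as a whole did not have the opposite sign. Most of the change in the sum was Cpa3 in every comparison, with means of 401 CPM in KO-con, 1170 in KO, 806 in Over-con and 649 in Over. Of 16 STO feeder and fibroblast markers, Pdgfrb was at 0 and Col1a2, Col1a1 and Col6a1 led. They summed to 1500 to 1712 CPM in KO-con, 1327 to 1872 in KO, 2099 to 2317 in Over-con and 1835 to 1914 in Over, so that KO overlapped KO-con, with 2 of 15 transcripts lower in KO, 1 of 16 lower in Over and 7 of 16 lower in KO-con than in Over-con.

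Of 16 macrophage and leukocyte markers, Adgre1, Itgam, C1qa and C1qb were at 0 and Laptm5, Spi1 and Ptprc led, with sums of 925 to 1059 CPM in KO-con, 1032 to 1196 in KO, 1188 to 1312 in Over-con and 1052 to 1136 in Over. Their transcripts gave 1 rise and 1 fall among 9 in KO, 1 rise among 9 in Over and 3 of 8 lower in KO-con than in Over-con. Of 17 granulosa, theca and luteal markers, 7 were at 0 (Foxl2, Fshr, Lhcgr, Cyp19a1, Nr5a1, Nr5a2 and Gata4), Cyp11a1, Inhba and Star led, and the sums were 137 to 148, 111 to 130, 105 to 125 and 95.7 to 102 CPM in the same order. In that list Cyp11a1 was the 1 of 8 transcripts lower in KO and the 1 of 7 higher in KO-con than in Over-con, and 0 of 7 passed in Over by edgeR, DESeq2 or limma-voom (1 at an unadjusted p under 0.05). Of the 3 germ cell transcripts tested in each comparison, 1 was lower in KO (Prdm1, lost with DESeq2), 1 was higher (Dppa3 itself) and 1 lower in Over (Ifitm3, -0.31, SE 0.0710, edgeR adjusted p = 0.0396), and 1 was higher (Prdm1) and 1 lower in KO-con than in Over-con (Ifitm3, -0.36, SE 0.0852, adjusted p = 0.00590). Between the controls DESeq2 passed 1 of the 3 transcripts, in place of 2 by edgeR. The germ cell sums were 115 to 140, 81.4 to 122, 154 to 168 and 150 to 162 CPM, in the same order. Ifitm3 made up most of each sum, with means of 121, 95.2, 155 and 124 CPM. The Over sum also held the overexpressed Dppa3 itself, with a mean of 30.3 CPM, so it is not comparable with that of Over-con. A marker at 0 is not shown to be absent, since a gene listed with several transcripts, such as Gapdh, can have few counts. The part of the cell type markers in the values of Akr1c12 and Akr1c13 was not tested.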

How the data were processed

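RNA-seq libraries of KO, KO-con, Over and Over-con FGSCs (3 each) were prepared with a stranded mRNA kit. The authors aligned the reads to mm9 with HISAT2 and deposited raw read counts per RefSeq transcript. The name of the table refers to featureCounts. The strand setting and the treatment of reads that match several genes are not stated. Groups and replicate numbers were read from the sample titles.

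Symbols were matched by accession for 99.5% of transcripts. Counts were tested with edgeR 4.0.16 (TMM, filterByExpr, glmQLFit and glmQLFTest), each comparison on its 6 libraries and the difference between effects on all 12, and p-values were adjusted by Benjamini-Hochberg across every transcript in the fit. Transcripts were called where the adjusted p was under 0.05 and the log2 fold change beyond 1 in size. The SE is the log2 fold change divided by the square root of F. The code of the fits was run on simulated counts with known fold changes and the same spread setting for every transcript. That simulation does not show how the fits perform on these data. Coding parts were aligned with Biopython 1.88, and the interval level was 95%.

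The members and lists were chosen with earlier results of these data known. Besides the members and Dppa3, the text names at most 3 genes per list and comparison with an adjusted p under 0.05 (and Stat5b, the fourth of its list in KO, and Prdm1, both named after their values were seen), the 3 most abundant markers and those at 0, and the 5 transcripts with the highest r. Genes of the neighbourhood and of the aldo-keto reductase list that missed the threshold were named after their values were seen. Alternatives were DESeq2 1.42.0, limma-voom 3.58.1, other scalings and filters, all 12 libraries, a replicate block, each library left out, counts per gene and the other control.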

Additional observations from a re-analysis of the deposited data

How the results depend on the processing

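The log2 fold changes of Akr1c12 and Akr1c13 kept their sign under other tools, scalings, filters, the replicate block and with each library left out. In KO against KO-con they lay between -1.52 and -1.39 for Akr1c12 and between -0.60 and -0.49 for Akr1c13, and in Over against Over-con between 0.73 and 0.81 and between 0.68 and 0.72. The exception was the other control. Against Over-con, KO stood at 1.17 for Akr1c13 and -0.18 for Akr1c12, and against KO-con, Over stood at -1.02 for Akr1c13 and -0.51 for Akr1c12. The fold threshold decided how many members were called, 2 in place of 1 in KO and 2 in place of 0 in Over without it, and against KO-con Over had 1. With library totals alone the mean of Akr1c13 in Over was 703 CPM in place of 689.

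The counts of pathway genes moved with the settings. The 1 call in KO, of the low Stat5b, became 0 with DESeq2, with at least 10 counts in every library and with counts summed per gene, 3 against Over-con and 18 without the fold threshold, and 0 to 2 with a library left out: 0 without KO-con replicate 2 or 3, and 2 without KO-con replicate 1, KO replicate 1 or KO replicate 3. The 7 between the controls became 4 with at least 10 counts in every library, 4 with counts summed per gene and 22 without the fold threshold, and 4 to 7 with a library left out (4 without KO-con replicate 1). The 0 in Over became 2 against KO-con, 4 without the fold threshold and 0 to 1 with a library left out (1 without Over-con replicate 3). Neighbours called with the fold threshold stayed at 0 throughout. Same-numbered libraries did not deviate together, with correlations of -0.17 to 0.056. Whether libraries with the same number were cultured or prepared together is not stated, and these correlations cannot show it. The replicate block gave 1, 0 and 2 called members and 1, 0 and 6 pathway genes in KO, Over and between the controls, and 2 members for the difference between effects. The other 6 members were at or near the floor of 3 counts, where no fold change could be given.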
